A study of Mus musculus with 6 samples.

Results

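The genes described here are 8 components of death receptor signalling, Fas, Tnfrsf10b, Tnfrsf1a, Tnfsf10, Fadd, Ripk1, Casp8 and Cflar, measured in murine embryonic fibroblasts (MEF) that lacked either TIA1 or TIAR. The members were chosen by name: every probe whose gene name in the scanner files was 1 of these 8 symbols was taken. This gave 12 probes on 22 spots, of 55681 probes and 34797 gene names in all. Cflar had 4 probes, Tnfrsf1a had 2 and the other genes had 1 each.

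Immortalized WT MEF (mouse strain W4 in the labels), TIA1 KO MEF (BALB/c) and TIAR KO MEF (C57BL/6) were compared, with 2 independent samples of each, on 6 1-colour arrays. The labels give no treatment. Because each genotype was 1 line from its own strain, genotype, strain and line cannot be told apart. Slide 1 held all 6 arrays, the WT and TIAR KO arrays in row 1 and the TIA1 KO arrays in row 2, and the slide row therefore cannot be told apart from TIA1 loss. Values are log2 intensities after background correction and normalization, and levels of different probes are not compared, except that lists of cell type markers are summed and their brightest probe is named. The study describes the 2 samples of a group as different biological samples, and each group is 1 line, so the p-values measure the spread between samples of these lines. In bulk RNA, fewer cells expressing a gene and less RNA per cell cannot be told apart.

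Death receptors are members of the TNF receptor superfamily that carry a cytoplasmic death domain. Fas, bound by Fas ligand, recruits the adaptor FADD, which brings in caspase-8, and the caspase-8-like protein c-FLIP, encoded by Cflar, limits caspase-8 activation in this complex. TNF receptor 1, encoded by Tnfrsf1a, assembles a complex with RIPK1 that signals to NF-kappaB or to death. TIA1 and TIAR are RNA-binding proteins known to promote inclusion of the Fas exon that encodes the transmembrane segment, and a transcript without this exon encodes soluble Fas. The array held 1 Fas probe, so the 2 splice forms were not measured separately.

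The probes that carry the results are shown by the first 30 of their 60 bases as the scanner files list them, because a hybridization signal reports only the transcript stretch that the probe matches. The Fas probe lay on the plus strand of mm9 at chr19:34402164-34402223. The 4 Cflar probes lay on the plus strand at chr1:58770546-58770605 (probe 1), chr1:58789994-58790053 (probe 2), chr1:58811116-58811175 (probe 3) and chr1:58810660-58810719 (probe 4). No base is marked by capitals in these lines.
Fas probe: gaagaccttccattgatggacagttctttt
Cflar probe 1: gggacttgggaagttggagagctgactcct
Cflar probe 2: ctttcttgctgatgtataaattgcctcctt
Cflar probe 3: gatttgacactgaatgtaacttgagactta
Cflar probe 4: tcatggacaaagtgtatgcgtggaacagtg
Cflar probe 4 had 2 reading frames without a stop codon over its 60 bases, whereas Cflar probes 1, 2 and 3 had 0. The files assigned probe 1 to an Ensembl transcript, probe 2 to the RefSeq transcript NM_009805, and probes 3 and 4 to NM_207653. The 4 probes therefore need not read the same Cflar transcripts. Exon and UTR annotation on mm9 was not used here.

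The genes that were deleted were read first. The brightest Tia1 probe gave 10.72 and 8.54 in WT, 7.87 and 8.44 in TIA1 KO, and 9.56 and 9.58 in TIAR KO MEF. The TIA1 KO values of this probe lay below all others, but the difference from WT was -1.47 ± 0.79 (log2 fold change ± SE), with an adjusted p of 0.288. A second Tia1 probe gave 9.56 and 9.90 in WT, 7.57 and 8.65 in TIA1 KO, and 9.98 and 8.63 in TIAR KO MEF. The third Tia1 probe went the other way, with 7.88 and 8.54 in TIA1 KO beside 7.44 and 7.25 in WT and 7.45 and 7.45 in TIAR KO MEF, where it was above background on 1 TIA1 KO array and on no other. The Tial1 probe measured on every array, which targets the mRNA of TIAR, gave 11.71 and 11.09 in WT, 11.85 and 11.49 in TIA1 KO, and 10.00 and 9.65 in TIAR KO MEF. It was lower in TIAR KO MEF than in WT MEF by -1.58 ± 0.26 (adjusted p = 0.0254). The brighter Tial1 probe had no value on WT replicate 1. It gave 13.22 on WT replicate 2, 14.07 and 13.69 in TIA1 KO, and 9.57 and 11.60 in TIAR KO MEF. With that 1 WT array its difference in TIAR KO against WT MEF was -2.63, which did not pass. Both Tial1 probes were above background on both TIAR KO arrays. Whether these probes lie in the deleted parts of the genes is not given in the sources used here. The brightest Gapdh probe, a housekeeping control, was -0.04 ± 0.16 from WT in TIA1 KO and 0.09 ± 0.14 from WT in TIAR KO MEF.

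The labelled cell type was checked with 10 fibroblast markers. Vim, Fn1, Col1a1, Col1a2 and S100a4 were bright on all 6 arrays. Thy1, Dcn and Pdgfra, which also mark fibroblasts, gave only 6.63 and 6.98, 6.57 and 6.62, and 6.37 and 6.40 on the WT arrays, where Thy1 and Dcn were well above background on 1 array each and Pdgfra on 0. TIA1 KO MEF had 7 of the 10 markers higher than WT MEF and TIAR KO MEF had 8, and none was lower. The part of this difference between the lines in the results below was not tested. On each array, 3 to 4 of 8 macrophage, 2 to 4 of 10 T and NK cell, 1 to 4 of 6 endothelial and 1 to 5 of 8 epithelial markers were above background. Of macrophage markers, Ptprc, Adgre1, Lyz2 and Fcgr1 were above background on no array, nor were Cd3g, Cd2, Gzmb, Ncr1 and Klrb1c of the T and NK cell markers or Cdh5 and Emcn of the endothelial ones. The brightest marker of each list was S100a4 (fibroblast), Itgam (macrophage), Cd4 (T and NK cell), Kdr (endothelial) and Krt8 (epithelial). Summed over their linear intensities, the fibroblast markers reached 533500 and 567100 in WT, 1315000 and 1290000 in TIA1 KO, and 1392000 and 1419000 in TIAR KO MEF. The macrophage markers reached 11240 and 10550, 21340 and 18850, and 10030 and 9944. The sums of the other lists lay between 3588 and 5252 (T and NK cell), between 3203 and 4070 (endothelial) and between 1498 and 2870 (epithelial) over the 6 arrays. Of the other lists, 1 of 8 macrophage markers (Itgam) and 1 of 8 epithelial markers (Krt8) were higher in TIA1 KO than in WT MEF. In TIAR KO against WT MEF, 1 macrophage marker (Cd14) was lower and 3 epithelial markers (Cdh1, Krt8 and Krt18) were higher. Between the knockouts, 3 of 10 fibroblast markers, 1 of 8 macrophage markers and 2 of 8 epithelial markers were higher in TIAR KO than in TIA1 KO MEF. Another 2 macrophage markers were lower there. The largest log2 fold change of a fibroblast marker in this comparison was 7.49, for Thy1, so the knockouts also differed from each other in Thy1. In all 3 comparisons, 0 of 10 T and NK cell and 0 of 6 endothelial markers passed by limma. At an unadjusted p under 0.05, 1, 1 and 2 T and NK cell markers and 1, 2 and 0 endothelial markers passed.

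A probe was called different when the limma test gave an adjusted p (Benjamini-Hochberg, over all 55681 probes) under 0.05 and the fold change exceeded 2, the thresholds of the study's methods. In counts of genes, the brightest probe stood for a gene that had more than 1. In TIA1 KO against WT MEF, 0 of the 8 genes passed, where 3.54% of all probes were called (2.18% higher and 1.36% lower). At an unadjusted p under 0.05, 1 of the 8 genes (Fas, 12.5%) and 15484 probes (27.8%) passed. In TIAR KO against WT MEF, 1 of 8 passed, Cflar, which was lower, where 5.76% of all probes were called (3.39% higher and 2.37% lower). In TIAR KO against TIA1 KO MEF, 1 of 8 passed, Fas, which was lower in TIAR KO MEF. Of all probes, 3.35% were called there (1.72% higher and 1.63% lower). At an unadjusted p under 0.05, 2 of 8 genes passed in each of the last 2 comparisons, beside 20.2% and 22.6% of all probes. The split of all calls depended on the scaling: with arrays scaled only to a common median, 1876 probes were higher and 13925 lower in TIA1 KO against WT MEF, in place of 1213 and 756. The splits of TIAR KO against WT and against TIA1 KO MEF were then 1424 and 2715, and 7242 and 1065, in place of 1885 and 1321, and 958 and 908. With that scaling 5 of the 8 genes passed as lower in TIA1 KO than in WT MEF, namely Tnfrsf1a, Fadd, Ripk1, Casp8 and Cflar. With 8 genes, 1 call is a share of 12.5%, and counts this small do not set these genes apart from the rest of the array. The median log2 fold change of the 8 genes was 0.14, -0.14 and -0.44 in these 3 comparisons, beside -0.09, -0.02 and 0.05 over all probes. With dim probes left out, the median of the remaining probes was -0.26 in TIA1 KO and -0.05 in TIAR KO against WT MEF. The first and second comparison share the WT arrays, and each knockout enters the third.

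**Figure D1:**
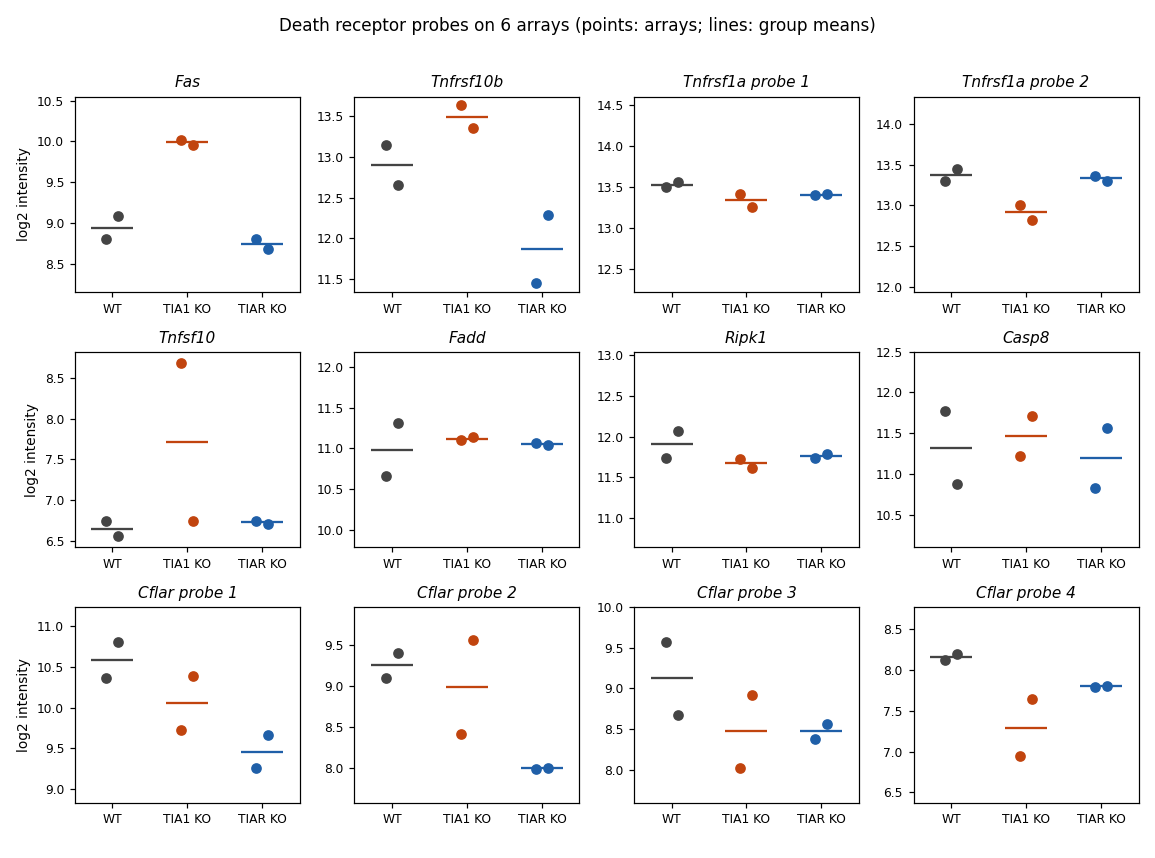
Log2 intensity of the 12 probes of the 8 death receptor genes (y axis, log2 scale) on the 6 arrays, grouped as WT, TIA1 KO and TIAR KO (x axis); points are arrays and lines are means of 2 arrays. Fas was at 10.02 and 9.96 on the TIA1 KO arrays and at 9.08 or below on the other 4, and Cflar probe 2 was at 7.98 and 8.00 on the TIAR KO arrays and at 8.41 or above on the other 4.

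Fas was higher in TIA1 KO than in TIAR KO MEF. Its probe gave 8.80 and 9.08 in WT, 10.02 and 9.96 in TIA1 KO, and 8.80 and 8.68 in TIAR KO MEF, and it was above background on all 6. Both TIA1 KO values lay above the other 4, and the WT and TIAR KO values overlapped. Fas was 2.07-fold higher in TIA1 KO than in WT MEF (log2 fold change 1.05 ± 0.18, 95% confidence interval 0.57 to 1.53), but its adjusted p of 0.0676 did not pass. Against WT, Fas in TIAR KO MEF differed by -0.20 ± 0.17 (interval -0.63 to 0.22, adjusted p = 0.603), which is no larger than the spread between arrays. Fas was 2.38-fold lower in TIAR KO than in TIA1 KO MEF (-1.25 ± 0.16, adjusted p = 0.0392), and this passed. By group means the order of Fas levels was TIA1 KO, WT and TIAR KO MEF. Of these differences, that between TIA1 KO and TIAR KO MEF alone passed.

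The Fas probe was spotted at 2 places on each array. On the TIA1 KO arrays its spots gave 9.59 and 10.44, and 9.36 and 10.55. On the WT arrays they gave 8.50 and 9.09, and 8.89 and 9.28, and on the TIAR KO arrays 8.47 and 9.13, and 8.34 and 9.01. The dimmer spot of each TIA1 KO array thus lay above the brighter spot of every other array, although the spots of 1 array differed by more than the arrays of 1 group. Before any correction, the mean Fas intensity was 464 and 515 in WT, 1380 and 1130 in TIA1 KO, and 424 and 309 in TIAR KO MEF, over local backgrounds between 41.0 and 95.5. The whole TIA1 KO arrays were also brighter, with median spot intensities of 458 and 218 beside 119 to 152 on the other arrays, and had fewer probes well above background, 16000 and 19920 beside 23531 to 26254. The part of this array difference in the Fas result was not tested, and the processing moved the call. With all arrays scaled only to a common median, Fas in TIA1 KO against WT MEF came to 0.12 where the median of all probes fell by 0.67, which is 0.79 above that median, and the TIAR KO against TIA1 KO call was lost (-0.55, or -1.18 against a median of 0.63). With the scanner's processed signal the Fas differences were 1.49 in TIA1 KO against WT and -1.73 in TIAR KO against TIA1 KO MEF. In the first of these, the brightest probes of the other members above background lay between -0.67 (Ripk1) and 0.31 (Casp8). The medians of all probes were 1.98 and -1.85, but only 28.7% to 47.2% of probes on an array were well above background. Relative to these medians, to which dim probes thus contributed most, Fas was at -0.49 in TIA1 KO against WT and at 0.12 in TIAR KO against TIA1 KO MEF. The latter call was also lost in the authors' own log2 table (-1.23, adjusted p = 0.057), without TIAR KO replicate 1 (adjusted p = 0.310) and without TIAR KO replicate 2 (0.336). The TIA1 KO against WT call was gained when dim probes were left out (adjusted p = 0.0416), when all 3 groups were fitted together (0.0226) and without TIA1 KO replicate 2 (0.0352).

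The 5 genes whose profile over the 6 arrays was most like that of Fas were looked for among 18305 brightest probes above background, each profile centred on its own mean. They were Tmc6, a transmembrane channel-like protein (root mean square difference 0.063), Glrx, the thiol oxidoreductase glutaredoxin (0.084), a lincRNA probe on chromosome 17 (0.086), a probe without a gene name on chromosome 19 (0.095) and Lactb, a mitochondrial serine beta-lactamase-like protein (0.104). Tmc6, for example, gave 12.06 and 12.28 in WT, 13.29 and 13.31 in TIA1 KO, and 11.99 and 11.84 in TIAR KO MEF. Because these genes were picked for their likeness to Fas on the same arrays, a shared order of groups follows from the choice.

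Tnfrsf10b, the mouse receptor for TRAIL with a death domain, had the same order of group means but a wider spread. It gave 13.14 and 12.65 in WT, 13.63 and 13.35 in TIA1 KO, and 11.45 and 12.29 in TIAR KO MEF, and no groups overlapped. The differences were 0.60 ± 0.24 in TIA1 KO against WT (adjusted p = 0.206), -1.02 ± 0.33 in TIAR KO against WT (0.161) and -1.62 ± 0.34 in TIAR KO against TIA1 KO (0.101), and none passed. The first of these turned to -0.97 when arrays were scaled only to a common median, where the second passed (-1.46, adjusted p = 0.0318). The third passed with dim probes left out (adjusted p = 0.0466), with all 3 groups fitted together (0.0476) and without TIA1 KO replicate 2 (-1.76, 0.0329).

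Tnfrsf1a, the receptor through which TNF triggers inflammatory signalling, passed in no comparison. Its brighter probe gave 13.50 and 13.56 in WT, 13.41 and 13.26 in TIA1 KO, and 13.40 and 13.41 in TIAR KO MEF. This probe was printed on 10 spots, and its group differences were -0.20 ± 0.16, -0.12 ± 0.14 and 0.07 ± 0.16. The 95% confidence interval of the difference was -0.62 to 0.23 for TIA1 KO and -0.47 to 0.23 for TIAR KO against WT. The second probe gave 13.30 and 13.45, 13.01 and 12.82, and 13.36 and 13.30, with a difference of -0.46 ± 0.17 in TIA1 KO against WT MEF (adjusted p = 0.176). Scaling to a common median changed this: the probes were then lower in TIA1 KO than in WT MEF by -1.78 (adjusted p = 0.00192) and -2.05 (0.00032), or -1.11 and -1.38 relative to the median of all probes, and the second probe was higher in TIAR KO than in TIA1 KO MEF by 1.58 (0.0134).

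Tnfsf10, which encodes the ligand TRAIL, was not well above background on any array. It gave 6.74 and 6.56 in WT, 8.68 and 6.75 in TIA1 KO, and 6.75 and 6.71 in TIAR KO MEF. Its 1 high value, on TIA1 KO replicate 1, came from a spot with an intensity of 1250 over a local background of 364, where the spot on the other TIA1 KO array had 136 over 72.0. The resulting difference of 1.07 ± 0.68 did not pass (adjusted p = 0.350). Without TIA1 KO replicate 2, which leaves the high value alone, the difference from WT was 2.03 (adjusted p = 0.0108) and that of TIAR KO against TIA1 KO was -1.95 (0.00645). Without TIA1 KO replicate 1 they were 0.10 (0.771) and -0.02 (0.970), so both rest on that array.

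The adaptor and kinase of the receptor complexes passed in no comparison. Fadd gave 10.66 and 11.31 in WT, 11.10 and 11.14 in TIA1 KO, and 11.06 and 11.04 in TIAR KO MEF, and both knockouts lay between the WT arrays. Its differences from WT were 0.14 ± 0.27 (95% confidence interval -0.59 to 0.86) and 0.06 ± 0.24 (-0.55 to 0.68). Ripk1 gave 11.74 and 12.07, 11.73 and 11.61, and 11.74 and 11.79, with differences of -0.24 ± 0.19 (-0.76 to 0.28) and -0.14 ± 0.17 (-0.58 to 0.29). These intervals hold for this normalization only. With arrays scaled to a common median, Fadd was lower in TIA1 KO than in WT MEF by -1.31 (adjusted p = 0.0265) and Ripk1 by -1.77 (0.0021), which is -0.64 and -1.10 relative to the median of all probes.

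Casp8, the initiator caspase of these complexes, differed more between arrays of 1 group than between groups. It gave 11.77 and 10.88 in WT, 11.22 and 11.71 in TIA1 KO, and 10.83 and 11.56 in TIAR KO MEF, and all groups overlapped. Its differences from WT were 0.14 ± 0.38 (95% confidence interval -0.89 to 1.16) in TIA1 KO and -0.13 ± 0.38 (-1.10 to 0.83) in TIAR KO MEF, and the intervals reach about as far as a 2-fold change. Casp8 in TIA1 KO against WT MEF was -1.34 (adjusted p = 0.023) with arrays scaled to a common median, or -0.67 relative to the median of all probes.

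**Figure D2:**
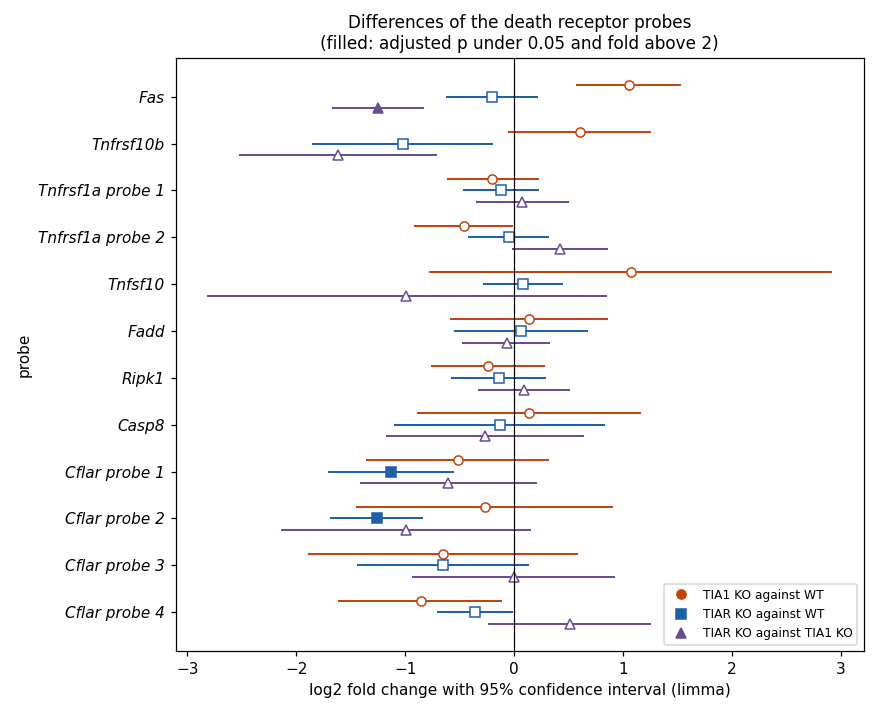
Log2 fold change (x axis) with its 95% confidence interval from limma for each of the 12 probes (y axis) in 3 comparisons, shown by marker and colour; filled markers passed the threshold. Fas at -1.25 in TIAR KO against TIA1 KO MEF, and Cflar probes 1 and 2 at -1.13 and -1.26 in TIAR KO against WT MEF, were the 3 filled markers.

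Cflar, which encodes the caspase-8 inhibitor c-FLIP, was lower in TIAR KO MEF on 2 of its 4 probes. Probe 1, the brightest, gave 10.36 and 10.81 in WT, 9.73 and 10.39 in TIA1 KO, and 9.26 and 9.66 in TIAR KO MEF. The TIAR KO values lay below both WT values, a fall by 1.13 ± 0.23 on the log2 scale or 2.19-fold (adjusted p = 0.0486). Probe 2 gave 9.10 and 9.41 in WT, 8.41 and 9.56 in TIA1 KO, and 7.98 and 8.00 in TIAR KO MEF. It fell by 1.26 ± 0.17 or 2.40-fold in TIAR KO MEF (adjusted p = 0.0134), and its TIA1 KO values spanned the WT range. Both calls also held in the authors' log2 table (-1.07, adjusted p = 0.0492, and -1.26, adjusted p = 0.0127).

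The other 2 Cflar probes, which lay 40.1 and 40.6 kb downstream of probe 1, did not pass. Probe 3 gave 9.57 and 8.68 in WT, 8.03 and 8.92 in TIA1 KO, and 8.38 and 8.57 in TIAR KO MEF. Its difference in TIAR KO against WT MEF was -0.65 ± 0.31 (adjusted p = 0.340). Probe 4 gave 8.12 and 8.20, 6.95 and 7.64, and 7.79 and 7.81, a difference of -0.36 ± 0.14 in TIAR KO MEF (adjusted p = 0.241). All 4 probes were on the lower side in TIAR KO MEF, and whether the probes differed among themselves was not tested.

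In TIA1 KO MEF the Cflar probes differed from WT by -0.52 ± 0.31, -0.27 ± 0.44, -0.65 ± 0.46 and -0.86 ± 0.28 (probes 1 to 4), and none passed, with adjusted p between 0.151 and 0.696. Probe 4 was well above background on both WT arrays and on 0 TIA1 KO arrays. Its fold is therefore a lower limit, 1.25, for a difference that did not pass. Probes 1 to 3 had 2, 1 and 1 TIA1 KO arrays above background. The signs of probes 2, 3 and 4 in TIA1 KO MEF turned with the scanner's processed signal (0.39, 0.20 and 0.18), under which the median of all probes was 1.98. In TIA1 KO against WT MEF, probe 1 passed with arrays scaled to a common median (-1.77, adjusted p = 0.0021). Probe 4 was at -1.21 without TIA1 KO replicate 2. The Cflar calls in TIAR KO MEF kept their direction but not always their side of the threshold. Probe 1 lost its call with any 1 of the 4 arrays left out (-1.35 to -0.91, adjusted p between 0.0582 and 0.179), with an offset of 16 (0.0598), with the processed signal (0.0642) and with all 3 groups fitted together (0.117). Probe 2, at -1.42 to -1.11 with 1 array left out, lost its call without TIAR KO replicate 1 or replicate 2 (adjusted p = 0.0726 and 0.0736) and with all 3 groups (0.165). In TIAR KO against TIA1 KO MEF, probe 2 passed without TIA1 KO replicate 1 (-1.57, 0.0196).

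**Figure D3:**
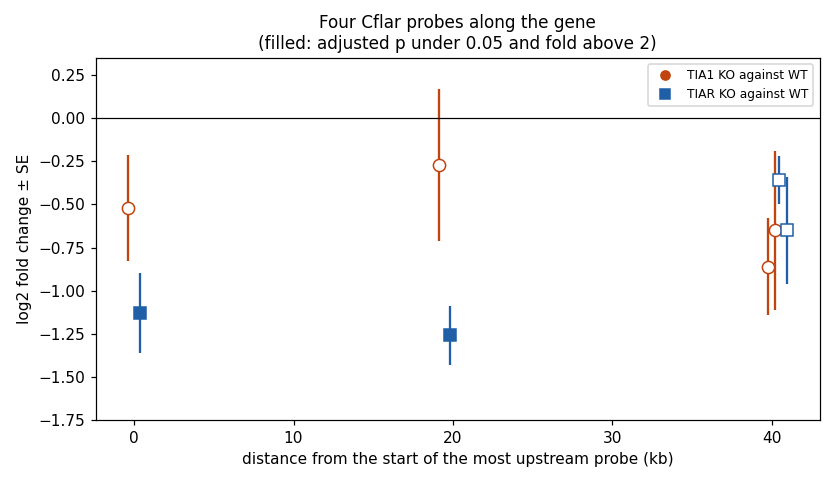
Log2 fold change ± SE of the 4 Cflar probes (y axis) against the distance in kb from the start of the most upstream probe (x axis), for TIA1 KO and TIAR KO against WT MEF, points shifted sideways by a small amount for legibility; filled markers passed the threshold. In TIAR KO MEF the upstream 2 probes were at -1.13 and -1.26 and the downstream 2 at -0.36 and -0.65.

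The 73 other genes of the pathway, taken from lists of ligands, receptors, adaptors, regulators and effectors, were all on the array. In TIA1 KO against WT MEF, 2 were higher and 3 lower (6.85%, beside 3.54% of all probes). In TIAR KO against WT MEF, 5 were higher and 5 lower (13.7%, beside 5.76%). In TIAR KO against TIA1 KO MEF, 2 were higher and 5 lower (9.59%, beside 3.35%). The shares of all probes include dim probes, whereas most pathway genes were above background. With dim probes left out, 6 of 62 pathway genes and 2922 of 23423 probes passed in TIA1 KO against WT MEF. For TIAR KO against WT MEF these were 10 of 65 and 3334 of 25187, so the shares of all probes do not show an excess of pathway calls. The same limit holds for the shares beside the other gene lists. The splits depended on the scaling: with arrays scaled only to a common median they were 2 higher and 52 lower, 4 and 12, and 23 and 4, so that the balance turned in the last comparison. The authors' log2 table gave 3, 9 and 5 calls. Dropping either WT array took the 5 calls in TIA1 KO MEF to 0, without TIA1 KO replicate 2 they were 16, and the 7 calls of TIAR KO against TIA1 KO MEF went to 0 without either TIAR KO array and to 16 without TIA1 KO replicate 2.

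Among 8 ligands, Fasl and Tnf, which encode the ligands of Fas and of TNF receptor 1, were above background on no array, as was Tnfsf14. Eda, an ectodysplasin of epithelial appendage development, gave 9.47 and 9.54 in WT, 7.54 and 8.10 in TIA1 KO, and 7.03 and 7.43 in TIAR KO MEF. It was lower in both knockouts, at least 2.72-fold in TIA1 KO (adjusted p = 0.0496) and at least 4.84-fold in TIAR KO MEF (0.00266), since it was above background on 0 arrays of either. The TIA1 KO call was lost in the authors' log2 table (adjusted p = 0.0675) and in 5 of 8 alternatives that keep all arrays. Tnfsf15, the ligand of death receptor 3, gave 7.44 and 7.25 in WT, 7.26 and 8.12 in TIA1 KO, and 8.57 and 8.73 in TIAR KO MEF. It was at least 2.47-fold higher in TIAR KO than in WT MEF (adjusted p = 0.00966), a Tnfsf15 call that was lost without TIAR KO replicate 2 (0.0603) and with all 3 groups fitted together (0.0783).

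Of 12 receptors, 1 was higher in TIA1 KO, and 2 were higher and 2 lower in TIAR KO MEF, each against WT. These are shares of 8.33% and 33.3%, beside 3.54% and 5.76% of all probes. In TIAR KO against TIA1 KO MEF, 1 receptor was higher and 2 were lower (25%, beside 3.35%). Tnfrsf11b, which encodes osteoprotegerin, a secreted decoy for RANKL and TRAIL, gave 6.75 and 6.81 in WT, 12.37 and 12.97 in TIA1 KO, and 6.88 and 6.76 in TIAR KO MEF. It was above background only on the TIA1 KO arrays, at least 51.0-fold higher than in WT MEF (adjusted p = 0.00537) and at least 49.5-fold higher than in TIAR KO MEF (0.00699). Tnfrsf23, a mouse decoy TRAIL receptor without a death domain, gave 13.65 and 13.53 in WT, 12.93 and 12.89 in TIA1 KO, and 10.01 and 10.60 in TIAR KO MEF. It was 9.76-fold lower in TIAR KO than in WT MEF (-3.29 ± 0.23, adjusted p = 0.00163). Tnfrsf22, the neighbouring decoy TRAIL receptor, gave 9.71 and 9.77, 8.72 and 9.47, and 8.49 and 8.64, and was 2.26-fold lower in TIAR KO MEF (adjusted p = 0.0108). Both decoy receptors were thus lower in TIAR KO MEF. With TIA1 absent, they differed from WT by -0.68 ± 0.15 and -0.65 ± 0.29, which did not pass.

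Tnfrsf21, death receptor 6, gave 7.90 and 7.78 in WT, 8.87 and 9.70 in TIA1 KO, and 9.24 and 8.97 in TIAR KO MEF. It was 2.40-fold higher in TIAR KO MEF (adjusted p = 0.0122), and the 1.44 ± 0.32 of TIA1 KO MEF did not pass (0.098). Tnfrsf19, the orphan receptor TROY, gave 6.75 and 7.13, 6.99 and 7.47, and 9.10 and 9.12. It was above background only in TIAR KO MEF, at least 3.87-fold higher than in WT MEF (adjusted p = 0.00281). The calls of Tnfrsf21 and Tnfrsf22 in TIAR KO against WT MEF were lost without WT replicate 2 (adjusted p = 0.0542 and 0.0506), without TIAR KO replicate 1 (0.0596 and 0.0595) and with all 3 groups fitted together (0.0849 and 0.0753). Of the decoys, Tnfrsf11b rose in TIA1 KO MEF and Tnfrsf22 and Tnfrsf23 fell in TIAR KO MEF.

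**Figure D4:**
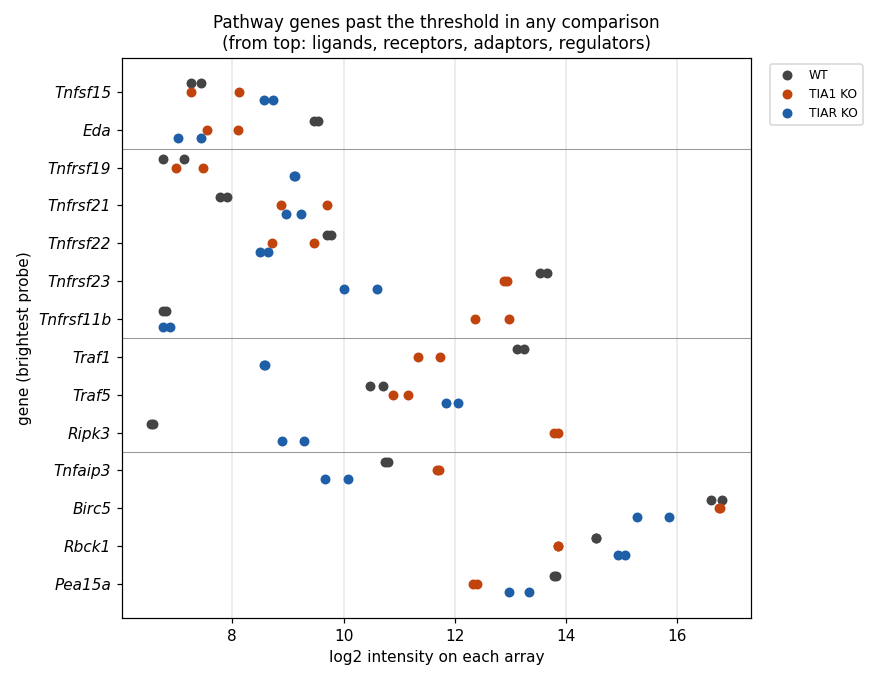
Log2 intensity on each of the 6 arrays (x axis) of the 14 pathway genes that passed the threshold in any comparison (y axis, brightest probe of each gene), coloured by WT, TIA1 KO and TIAR KO; grey lines separate ligands, receptors, adaptors and regulators from top to bottom. Ripk3 and Tnfrsf11b stood at 12.37 or above on the TIA1 KO arrays only, and Traf1 and Tnfrsf23 were lowest on the TIAR KO arrays.

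All 20 adaptors and complex components were above background in at least 1 group. Ripk3, the kinase that drives necroptosis together with Ripk1 and Mlkl, gave 6.58 and 6.53 in WT, 13.79 and 13.85 in TIA1 KO, and 8.89 and 9.29 in TIAR KO MEF. Its WT level was not well above background, and it was at least 122-fold higher in TIA1 KO (adjusted p = 0.00362) and at least 4.61-fold higher in TIAR KO MEF (0.00187). Ripk3 was also 26.5-fold lower in TIAR KO than in TIA1 KO MEF (adjusted p = 0.0068). Traf1, an adaptor of the TNF receptor 2 complex and an NF-kappaB target, went the other way. It gave 13.11 and 13.25 in WT, 11.74 and 11.34 in TIA1 KO, and 8.56 and 8.59 in TIAR KO MEF, 3.13-fold and 24.4-fold lower than WT (adjusted p = 0.0394 and 0.000214), and the TIA1 KO call was lost in 4 of 8 alternatives that keep all arrays, the authors' log2 table among them (0.0737). Traf5, a related adaptor, gave 10.47 and 10.70, 10.89 and 11.15, and 12.05 and 11.84, and was 2.57-fold higher in TIAR KO MEF (adjusted p = 0.0103), a call lost without TIAR KO replicate 1 (0.0584), with the processed signal (0.0643) and with the common median (0.98, under the fold threshold).

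Of 18 genes of ubiquitin editing and inhibition of death, 1 was lower in TIA1 KO and 1 in TIAR KO against WT MEF. Each share, 5.56%, is 1 gene, beside 3.54% and 5.76% of all probes. In TIAR KO against TIA1 KO MEF, 1 was higher and 1 lower (11.1%, beside 3.35%). Pea15a, a death effector domain protein that binds FADD and caspase-8, gave 13.78 and 13.81 in WT, 12.32 and 12.39 in TIA1 KO, and 13.33 and 12.97 in TIAR KO MEF. It was 2.71-fold lower in TIA1 KO MEF (adjusted p = 0.027). This call was lost with the processed signal (-1.64, 0.075) and with the replicate block (-1.44, 0.0775). Birc5, survivin, gave 16.61 and 16.81, 16.74 and 16.76, and 15.85 and 15.28, and was 2.21-fold lower in TIAR KO MEF (adjusted p = 0.0492), just past the threshold, and not in the authors' log2 table (0.0508). The Birc5 call was lost in 5 of 8 alternatives that keep all arrays and without WT replicate 1, WT replicate 2 or TIAR KO replicate 2 (-1.25, -1.04 and -0.86). Between the knockouts, Tnfaip3, which encodes the ubiquitin-editing enzyme A20, was 3.53-fold lower in TIAR KO than in TIA1 KO MEF (adjusted p = 0.0334), with WT arrays at 10.79 and 10.75 between 11.67 and 11.72 in TIA1 KO and 9.67 and 10.08 in TIAR KO MEF. Rbck1, a subunit of the linear ubiquitin ligase, was 2.20-fold higher in TIAR KO than in TIA1 KO MEF (adjusted p = 0.0463). Both of these calls were lost in the authors' log2 table (0.0531 and 0.0647), and in 4 and 5 of 8 alternatives that keep all arrays.

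Of 15 caspases and downstream effectors, 0 passed in any of the 3 comparisons by limma, in the authors' log2 table either. At an unadjusted p under 0.05, 8, 4 and 4 of 15 passed, beside 27.8%, 20.2% and 22.6% of all probes. The median log2 fold change of this list was -0.65 in TIA1 KO and -0.24 in TIAR KO against WT MEF, beside -0.09 and -0.02 over all probes. All 15 genes were above background, and with dim probes left out the medians of the remaining probes were -0.26 and -0.05. Of the 15 genes, 3 and 6 were on the higher side. The range in TIA1 KO MEF ran from -1.21 for Dffa, the inhibitor of the caspase-activated DNase, to 0.56 for Gsn, the caspase substrate gelsolin.

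Fas and Tnfrsf10b are textbook targets of p53, Cflar and Tnfaip3 of NF-kappaB, and Fas, Casp8 and Tnfsf10 can be induced by interferons, so 20 known targets of each were read beside them. Of p53 targets, 1 was higher in TIA1 KO, 2 were lower in TIAR KO against WT, and 3 were lower in TIAR KO than in TIA1 KO MEF (5%, 10% and 15%, beside 3.54%, 5.76% and 3.35% of all probes). The 5% is 1 gene. Perp, a desmosomal p53 effector, gave 13.43 and 13.39 in WT, 14.32 and 14.46 in TIA1 KO, and 7.97 and 8.26 in TIAR KO MEF, 39.3-fold lower in the latter than in WT (adjusted p = 0.00021). Cdkn1a, the cell cycle inhibitor p21, gave 12.37 and 12.42, 13.24 and 13.17, and 10.14 and 10.38, 4.39-fold lower in TIAR KO than in WT MEF (adjusted p = 0.00189). Ccng1, cyclin G1, was 3.27-fold lower in TIAR KO than in TIA1 KO MEF (adjusted p = 0.0463), and Zmat3, an RNA-binding p53 target, was 2.38-fold higher in TIA1 KO than in WT MEF (0.0381), a difference that turned to -0.33 with arrays scaled only to a common median. In the authors' log2 table neither Ccng1 (0.0654) nor Zmat3 (0.0563) passed, and their calls were lost in 6 and, with the turn above, 5 of 8 alternatives that keep all arrays. Most of the 20 did not pass.

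Of NF-kappaB targets, 2 were higher and 4 lower in TIA1 KO (30%), 3 higher and 4 lower in TIAR KO (35%), each against WT, and 4 higher and 3 lower in TIAR KO against TIA1 KO MEF (35%), beside the same shares of all probes. They moved both ways. Ccl5, a chemokine, gave 14.76 and 13.55 in WT, 9.53 and 9.50 in TIA1 KO, and 8.10 and 7.87 in TIAR KO MEF, 24.9-fold and 71.9-fold lower than WT (adjusted p = 0.0228 and 0.00131). The monocyte chemokine Ccl2 was 9.76-fold lower in TIA1 KO MEF and 2.10-fold lower in TIAR KO MEF (adjusted p = 0.00557 and 0.0134), and the neutrophil chemokine Cxcl1 was 4.62-fold lower in TIAR KO MEF (0.00138). Ptgs2, cyclooxygenase 2, went in opposite directions, 5.53-fold higher in TIA1 KO and 3.72-fold lower in TIAR KO than in WT MEF (adjusted p = 0.0279 and 0.00538). The TIA1 KO call of Ptgs2 was lost with the common median (1.03, adjusted p = 0.0973, beside a median of all probes of -0.67). It was also lost with the processed signal (2.42, 0.0697, beside 1.98). Tnfaip2 was 3.34-fold higher in TIA1 KO MEF (0.0228), and Il6 and Vcam1 were 3.12-fold and 3.07-fold higher in TIAR KO MEF (0.00381 and 0.00368). The Tnfaip2 call was lost with arrays scaled to a common median (0.16, adjusted p = 0.814, beside a median of all probes of -0.67). It was also lost with the replicate block (0.0684) and with the processed signal (1.56, 0.075, below the median of all probes of 1.98).

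Of interferon-induced genes, 10 of 20 were lower in TIA1 KO (50%) and 12 of 20 in TIAR KO MEF (60%), each against WT, and 0 were higher, while 3 were lower in TIAR KO than in TIA1 KO MEF (15%), beside 1.36%, 2.37% and 1.63% of all probes on the lower side. Oas1a, an antiviral oligoadenylate synthetase, gave 12.26 and 13.10 in WT, 9.89 and 9.68 in TIA1 KO, and 6.82 and 6.99 in TIAR KO MEF. Its fall was 7.44-fold in TIA1 KO (adjusted p = 0.0332) and at least 50.9-fold in TIAR KO MEF (0.000684). Isg15, a ubiquitin-like interferon product, was 4.61-fold and 21.4-fold lower (adjusted p = 0.0164 and 0.000546). Usp18, which removes ISG15 from proteins, and the guanylate-binding protein Gbp3 fell at least 3.59-fold and at least 3.11-fold in TIA1 KO MEF. Cxcl10 fell 5.31-fold there. In TIAR KO MEF Oasl1 and Rtp4 fell at least 16.2-fold and 13.6-fold. The log2 fold change of Rtp4 was -4.48 to -3.06 with 1 array left out. Its call was lost with the processed signal (-5.21, adjusted p = 0.0949). All calls of TIA1 KO against WT MEF named in these context lists were lost without either WT array, and all of TIAR KO against TIA1 KO MEF without either TIAR KO array.

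The 250 bases upstream of the Fas and Cflar transcription starts are shown because Fas and Cflar were the 2 members with a call, taken from RefSeq promoters of GRCm38.p6, which gave 8 promoters for 7 of the 8 genes. Capitals mark matches to a kappaB-like motif (GGG, any 5 bases, CC) on either strand, and overlapping matches would merge into 1 run. The motif stood in 3 of the 8 promoters and in 45.8% of 32851 promoters of the same length, and an interferon response element pattern (GAAA, any 2 bases, GAAA), on either strand, stood in 2.98% of them and in 0 of the 8. The Fas stretch lay on the plus strand at chr19:34290409-34290658 with 2 kappaB-like matches, and the Cflar stretch on the plus strand at chr1:58711241-58711490 with 0. A match is a description of letters and not a binding site.
Fas promoter: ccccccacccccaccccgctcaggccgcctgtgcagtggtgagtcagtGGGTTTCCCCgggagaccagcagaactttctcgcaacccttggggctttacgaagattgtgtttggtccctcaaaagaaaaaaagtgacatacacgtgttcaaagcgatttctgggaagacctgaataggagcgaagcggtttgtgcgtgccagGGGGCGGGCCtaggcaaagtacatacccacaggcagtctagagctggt
Cflar promoter: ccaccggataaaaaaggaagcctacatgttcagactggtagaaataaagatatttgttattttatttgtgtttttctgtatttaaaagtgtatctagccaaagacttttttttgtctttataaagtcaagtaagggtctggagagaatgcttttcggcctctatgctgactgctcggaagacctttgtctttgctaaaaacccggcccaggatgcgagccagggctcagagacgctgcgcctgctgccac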

How the data were processed

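Expression was measured on 6 Agilent 1-colour arrays, 2 per group (WT, TIA1 KO, TIAR KO). The authors deposited the scanner output of each array (Agilent Feature Extraction 10.7.3.1, per the file headers), with the mean intensity, the local background intensity and quality flags of every spot, not normalized between arrays, and probe positions on mm9. The flags (outlier, saturated, well above background) are other deposited values and were used as filters and ratings. A further table that the authors deposited holds normalized log2 values, and they name limma among their tools. Its scale matched log2 intensity, and its medians per array were between 7.23 and 7.28. Scaling each array by the average signal of all its genes, which the methods call global normalization, was not applied here.

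Intensities were corrected with normexp (offset 50), log2-transformed, passed once (1 pass) through fast cyclic loess, and then quantile normalized. Outlier and control spots were left out, and spots of 1 probe were averaged. The correlation with the authors' log2 table was between 0.9972 and 0.9995. Each comparison was fitted with limma (lmFit, eBayes) on its 4 arrays, without covariates, and adjusted by Benjamini-Hochberg over 55681 probes. Without any filter on dim probes, log2 fold changes near background understate differences. For a rating of well above background, 50% or more of the spots of a probe on that array had to carry the flag. For a gene not so rated on any array of 1 group, the fold is a lower limit against the lowest level rated well above background on those arrays, or the probe's own where higher. WT replicate 1 had no usable spot for the brighter Tial1 probe.

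The members, gene lists and tests were chosen with earlier results of these data known. The genes named were Tia1, Tial1 and Gapdh, every member probe, every pathway gene called in any comparison, up to 4 called genes with the largest change per comparison from the p53, NF-kappaB and interferon lists, and the 5 genes most like Fas. Fasl, Tnf, Tnfsf14, Mlkl, Dffa, Gsn and the cell type markers were named outside this rule after their values were seen. Pidd1, Otulin and Adgre1 stood under older names in the files. The alternatives were quantile normalization without loess, an offset of 16, arrays brought to a common median, the scanner's processed signal scaled to its 75th percentile, the authors' log2 table, leaving out dim probes, fitting all 3 groups, the replicate number as a block, each array left out in turn, and the mean of a gene's probes. A lone array of a group was assumed to vary like the other group. Same-numbered samples did not deviate together (correlations of 0.078, 0.03 and -0.073). The fits were tested on simulated data, and no result of that test is given or used here. No spot was saturated. The number of arrays limits the precision. R 4.3.3, limma 3.58.1, data.table (1.17.8), Python 3.11.15, matplotlib 3.10.9 and pandas 2.3.3 were used.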

Additional observations from a re-analysis of the deposited data

Results flagged for a closer look

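Fas differed between the 2 knockouts: the log2 fold change of TIAR KO against TIA1 KO MEF was -1.25 ± 0.16 (limma, adjusted p = 0.0392), with both TIAR KO arrays below both TIA1 KO arrays. The call was lost in 5 of 8 alternatives that keep all arrays and without either TIAR KO array. With the processed signal the difference was -1.73, or 0.12 relative to the median of all probes, most of them dim. The difference of the 2 knockouts' changes from WT equals this direct comparison, because the WT arrays cancel.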

How the results depend on the processing

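The number of member genes called was 0 in TIA1 KO against WT, 1 in TIAR KO against WT and 1 in TIAR KO against TIA1 KO MEF. In TIA1 KO against WT it was 5 with arrays scaled to a common median and 1 each with dim probes left out, with all 3 groups fitted together and with the mean of the probes of a gene. For TIAR KO against WT it was 2 with the common median, and 0 with an offset of 16, the processed signal, all 3 groups and the mean of probes. For TIAR KO against TIA1 KO it was 0 with an offset of 16, the common median, the processed signal, the authors' log2 table and the replicate block, and 2 with dim probes left out, all 3 groups and the mean of probes. Leaving out 1 array gave 0 to 2, 0 to 0 and 0 to 3.

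Other pathway genes called numbered 5, 10 and 7. In TIA1 KO against WT there were 3 with quantile normalization alone, 54 with the common median, 0 with the processed signal, 3 in the authors' log2 table and 2 with the replicate block. Against WT, TIAR KO had 16 with the common median and 6 with all 3 groups. Against TIA1 KO, it had 27 with the common median, 3 with the processed signal and 0 with the replicate block. Leaving out 1 array gave 0 to 16, 8 to 9 and 0 to 16. Over all probes, where 1969, 3206 and 1866 were called, the counts of TIA1 KO against WT were 15801 with the common median, 0 with the processed signal (where the median of all probes was 1.98), 1309 in the authors' log2 table, 3986 with all 3 groups and 671 with the replicate block. Those of TIAR KO against TIA1 KO were 8307 with the common median, 2910 with dim probes left out, 3183 with all 3 groups and 0 with the replicate block. The processed signal split the latter into 125 higher and 1384 lower. Leaving out 1 array gave 0 to 10735, 2307 to 2797 and 0 to 10086.

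Fas in TIA1 KO against WT passed with dim probes left out (1.05, adjusted p = 0.0416) and with all 3 groups (1.05, 0.0226), and was 0.90 to 1.19 with 1 array left out, where it passed without TIA1 KO replicate 2. Fas in TIAR KO against TIA1 KO did not pass with an offset of 16 (-1.35, 0.0540), the common median (-0.55, 0.382), the processed signal (-1.73, 0.0695), the authors' log2 table (-1.23, 0.0570) or the replicate block (-1.25, 0.140), and was -1.31 to -1.19 with 1 array left out. Against WT, Fas in TIAR KO did not pass under any alternative, and was -0.35 to -0.06 with 1 array left out. The cause of these changes was not tested.

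Without subtracting the median of all probes, signs that turned belonged to differences that had not passed, except Zmat3 in TIA1 KO against WT (-0.33 with the common median). Relative to that median, to which dim probes contributed most, Fas in TIAR KO against TIA1 KO was 0.12 with the processed signal. Its own difference of -1.73 kept its sign. In TIA1 KO against WT, where that median was 1.98, Tnfaip2 (1.56) and Zmat3 (0.99) lay below it, although both had passed as higher. With the common median, TIA1 KO against WT turned for Tnfrsf10b (-0.97), Fadd (-1.31) and Casp8 (-1.34), TIAR KO against WT for Fadd (-0.31), and TIAR KO against TIA1 KO for Fadd (1.01), Casp8 (0.83), Cflar probe 1 (0.32) and Cflar probe 3 (0.27). With the processed signal, TIA1 KO against WT turned for Fadd (-0.35) and Cflar probes 2, 3 and 4 (0.39, 0.20 and 0.18), TIAR KO against WT for Tnfsf10 (-0.17) and Fadd (-0.24), and TIAR KO against TIA1 KO for Fadd (0.11) and Cflar probe 4 (-1.08). In the authors' log2 table, Tnfsf10 turned in TIAR KO against WT (-0.01) and Cflar probe 3 in TIAR KO against TIA1 KO (0.20), the latter also without loess (0.17). With 1 array left out, TIA1 KO against WT ranged from -0.19 to 0.46 for Fadd, from -0.31 to 0.59 for Casp8 and from -0.85 to 0.31 for Cflar probe 2. TIAR KO against WT ranged from -0.13 to 0.03 for Tnfrsf1a probe 2, from -0.01 to 0.17 for Tnfsf10, from -0.26 to 0.39 for Fadd, from -0.31 to 0.02 for Ripk1 and from -0.58 to 0.31 for Casp8. TIAR KO against TIA1 KO ranged from -0.01 to 0.15 for Tnfrsf1a probe 1, from -0.64 to 0.10 for Casp8 and from -0.45 to 0.44 for Cflar probe 3.

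Of the pathway calls named, 13, 10 and 16 of their values under the 8 alternatives that keep all arrays did not pass in TIA1 KO against WT, TIAR KO against WT and TIAR KO against TIA1 KO MEF, and 27, 70 and 40 did. For the up to 4 calls per comparison from each p53, NF-kappaB and interferon list, 17, 1 and 21 did not pass. There, 54, 79 and 59 passed, and 1 value (Zmat3 in TIA1 KO against WT) turned. The 9 such calls of TIA1 KO against WT were all lost with the processed signal, and 4 with the replicate block. All 10 of TIAR KO against TIA1 KO were lost with the block. The replicate numbers are only names here, and the block changed no other member call than those given.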
